A study of Mus musculus with 2 samples.

Results

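The complement genes described here are 9 genes of the RNA-Seq table whose symbol is C1qa, C1qb, C1qc, C2, C3, C4b, Cfb, Cfd or Serping1, out of 23361 genes with values. All 9 had an FPKM (fragments per kb of transcript, scaled to the size of the library) above 0 at both stages. The libraries came from cultures of mice labelled C57BL/6 (C57BL/6J in the methods), prepared from interscapular brown adipose tissue of newborn animals. By the labels, the cells at D0 were brown preadipocytes, grown in 20% serum and moved to medium with 10% serum, insulin (0.1 μM) plus T3 (1 nM) before induction. At D7 they were brown adipocytes, after 2 days of IBMX (at 0.5 mM), indomethacin (at 0.125 mM) and dexamethasone (at 2 μg/ml) on top of insulin and T3. The methods differ from the labels on the serum for growth and on the doses of insulin and dexamethasone, and they add insulin and T3 only at day 0. Whether the D0 library had met insulin and T3 is therefore not settled by the sources. The labels name the cells as primary cultures, while the methods describe immortalization with large T, and each stage was 1 library. Which animals gave the cells of each library, and whether they were pooled, is not given in the sources used here.

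Complement is a cascade of plasma proteins that marks particles for removal and recruits immune cells. In the classical pathway, C1q binds antibody complexes or altered surfaces, the proteases C1r and C1s are activated, and C4 and C2 are cleaved to build an enzyme that cuts C3. In the alternative pathway, factor B binds cut C3 and is cleaved by factor D, which gives another enzyme that cuts C3. Factor D is also called adipsin because it was found as a product of fat cells, C1q is made mainly by macrophages and dendritic cells, and the liver makes most of the other plasma components.

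The depth of the libraries was worked out from the deposited FPKM of single-exon genes, since the table holds no counts. The denominators so found were 21472759 fragments for D0 and 18265936 for D7. Intervals are exact at 95%, cover counting error only and compare these libraries, not the stages. With 1 library per stage no difference had a replicate check, no test was possible and no p-value is given. Adipocyte markers went with the labels, since Adipoq (adiponectin) went from FPKM 0.221 to 943 and Fabp4 from 20.3 to 14391. The 7 adipocyte markers above 0 in both libraries had ratios of at least 31.5, and the other 4, among them Ucp1, were listed at 0 at D0. Of 9 preadipocyte and fibroblast markers, 2 were at least 2.0-fold higher at D7, Dlk1 (ratio 10.8) and Cd34 (8.29), and 3 were lower. For comparison, 18.5% of all genes above 0 in both libraries were at least 2.0-fold higher at D7 and 13.2% were lower. Of 5 endothelial markers, 2 were higher and 1 was lower, and Tek alone reached an FPKM of 1. The lower one, Cdh5, had 13 fragments at D0 and 2 at D7. Of 6 skeletal muscle markers, Acta1 was lower, with 45.4 at D0 and 1.73 at D7, and 3 of 5 T and B cell markers were listed at 0 in both libraries.

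Of the 9 complement genes, 8 reached a ratio of D7 to D0 of at least 2.0, called higher here, and 0 had a ratio of at most 0.5, called lower. Over all 14986 genes above 0 in both libraries, 18.5% were higher and 13.2% were lower by the same measure. The median log2 ratio of D7 to D0 was 2.95 for the 9 genes and 0.02 for all genes. The exception was Serping1, whose ratio of 1.96 stood just under the threshold. Summed over the 9 genes, FPKM went from 108 at D0 to 1112 at D7, or from 0.0211% to 0.213% of all FPKM. Most of each sum came from a single gene, Serping1 with 70.0 at D0 and Cfd with 579 at D7. In such cultures, more cells of a type and more RNA per cell cannot be told apart.

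The order of the levels changed between the stages. At D0 the highest level was that of Serping1, followed by C1qb, C1qa, C1qc, C2, C4b, Cfb, C3 and Cfd. At D7 the order was Cfd, Serping1, C3, C1qb, C1qa, C1qc, C4b, C2 and Cfb. At D0 the counting intervals of the FPKM of the C1q chains overlapped each other, and so did those of C2 and C4b, of Cfb and C3, and of C3 and Cfd, while Cfb and Cfd, not neighbours, also overlapped. At D7 neighbours in the order did not overlap in their counting intervals, apart from C1qa and C1qc. The spread between cultures is unknown for every one of these levels. Cfd moved from place 12601 to place 147 of the 23361 genes ranked by FPKM, and C3 from 12054 to 687.

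**Figure D1:**
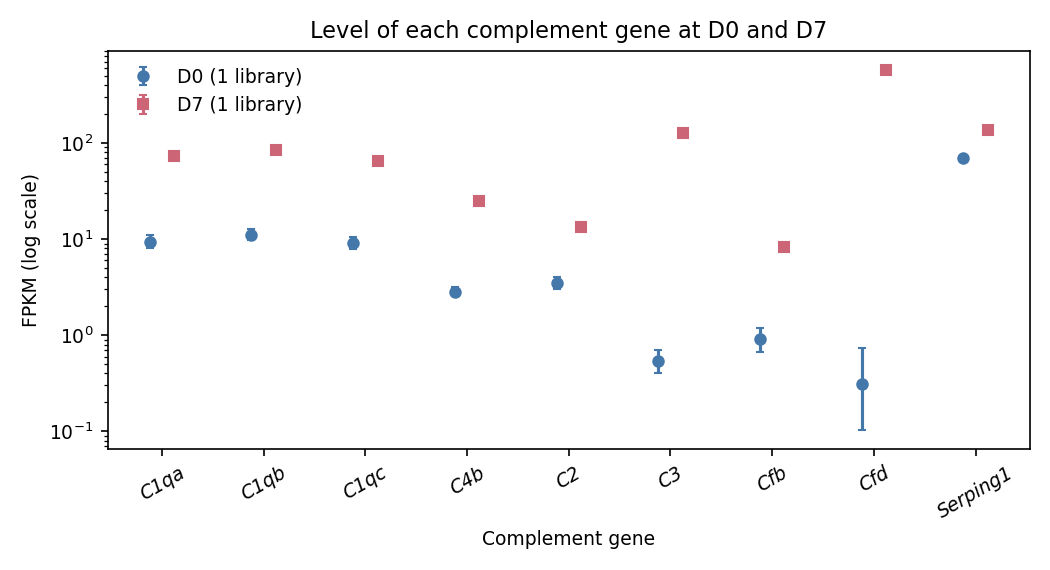
FPKM (log axis) of each complement gene in the D0 library (circles) and the D7 library (squares), with exact 95% counting intervals as bars. Cfd lies lowest at D0, at 0.313, and highest at D7, at 579, while Serping1 goes only from 70.0 to 137.

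C1qa, C1qb and C1qc encode the 3 chains of C1q, the recognition unit of the classical pathway, which is assembled from equal numbers of each chain. The genes lie together on chromosome 4 (mm10, 136880129 to 136898803, minus strand), within 18.7 kb. C1qb (ENSMUSG00000036905.8, 136880129 to 136886187) is followed by C1qc (ENSMUSG00000036896.5, 136889804 to 136893065) and C1qa (ENSMUSG00000036887.5, 136895917 to 136898803). Each has 3 exons in the transcript used, no annotated gene overlaps them, and 0 of their 90-base windows occur in transcripts of other genes.

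C1qa stood at FPKM 9.44 in the D0 library against 72.9 in the D7 library, from 175 and 1142 fragments. Its ratio of D7 to D0 was 7.72 (95% interval 6.56 to 9.08). C1qb stood at FPKM 11.1 in the D0 library against 84.4 in the D7 library, from 217 and 1397 fragments, and the ratio was 7.59 (6.58 to 8.80). The chains thus moved by a like factor. C1qc stood at FPKM 9.21 in the D0 library against 65.7 in the D7 library, from 202 and 1226 fragments, and the ratio was 7.14 (6.16 to 8.35). The 3 intervals overlap, so no difference between the ratios of the chains was detectable at this depth. Within a library the levels of the chains were close, since C1qa stood at 0.848 of C1qb at D0 and at 0.863 at D7. C1qc stood at 0.827 of C1qb at D0 and at 0.779 at D7.

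Starts in the RefSeq table of GRCm38.p6 were found for 4 of the 9 genes, namely C1qb, C1qc, C3 and Cfd. For the chains of C1q, whose genes moved together, sequence before the start is shown here, 5′ to 3′ on the minus strand of chromosome 4. For C1qb it is the 250 bases at chr4:136886201-136886450. The RefSeq start of C1qc lies inside the first exon of GENCODE M21, so that only the 99 bases of its window outside that exon are shown, at chr4:136893066-136893164. Capitals mark AGGAAGT, the core letters of sites for ETS factors such as PU.1 of myeloid cells, read on the opposite strand as ACTTCCT, and in C1qc also the nuclear receptor letters AGGTCA, read as TGACCT.
C1qb: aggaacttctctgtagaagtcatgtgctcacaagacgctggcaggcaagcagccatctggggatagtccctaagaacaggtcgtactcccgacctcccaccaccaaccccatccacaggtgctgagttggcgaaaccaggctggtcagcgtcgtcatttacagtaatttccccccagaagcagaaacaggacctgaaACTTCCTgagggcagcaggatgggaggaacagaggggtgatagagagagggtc
C1qc: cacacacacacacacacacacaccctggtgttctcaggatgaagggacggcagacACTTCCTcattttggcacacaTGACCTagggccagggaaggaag

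The ETS letters lie 53 to 47 bases before the start of C1qb and 195 to 189 bases before that of C1qc. On either strand, AGGAAGT is held by 7.69% of the 32851 windows of this length in the table, and AGGTCA by 14.0%. These letters were chosen after the sequences were seen, and a match is a description of the sequence, not of binding.

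Markers of macrophages moved in the same direction as the C1q chains. Of the 15 macrophage markers with values, 14 were called higher and 0 lower, beside 18.5% and 13.2% of all genes. Their median log2 ratio was 2.35, beside 0.02 for all genes. Their summed FPKM was 144 at D0 and 464 at D7. Without Lyz2 (lysozyme), which made up most of that sum, it was 33.3 and 178. The summed FPKM of the C1q chains was 29.8 (D0) and 223 (D7), with a ratio of 7.49. It stood at 0.206 of the sum of all 15 markers at D0 and at 0.480 at D7. Against the 14 markers without Lyz2 these shares were 0.893 and 1.25. No defining marker was at 0 in a library, but Aif1 and Cd163 had only 1 fragment each at D0. An FPKM of at least 1 at D0 was reached by 9 of the 15.

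The ratios of single macrophage markers spread widely around those of the C1q chains. Of the 15 markers, 10 had a ratio below that of C1qc, the lowest of the chains, Laptm5 lay between the chains at 7.21, and 4 lay above C1qa. Among these 4, Aif1 had a ratio of 20.1 (95% interval 3.14 to 839) and Cd163 of 121 (21.3 to 4832). Both rest on 1 fragment at D0, and the interval of Aif1 covers those of the chains. Cd14, a co-receptor for bacterial lipopolysaccharide, stood at FPKM 4.81 in the D0 library against 5.08 in the D7 library, so that the ratio was 1.06 (95% interval 0.829 to 1.34). Csf1r, the receptor for the macrophage growth factor CSF1, had 2.63 and 10.4, a ratio of 3.94 (3.37 to 4.61). Emr1, also called Adgre1, had 1.40 and 14.3, a ratio of 10.2 (8.20 to 12.8). Its interval overlaps those of C1qa, C1qb and C1qc. Mrc1, the mannose receptor, had 0.589 and 21.1, a ratio of 35.8 (27.8 to 46.2). The part of macrophages in the C1q levels was not tested.

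**Figure D2:**
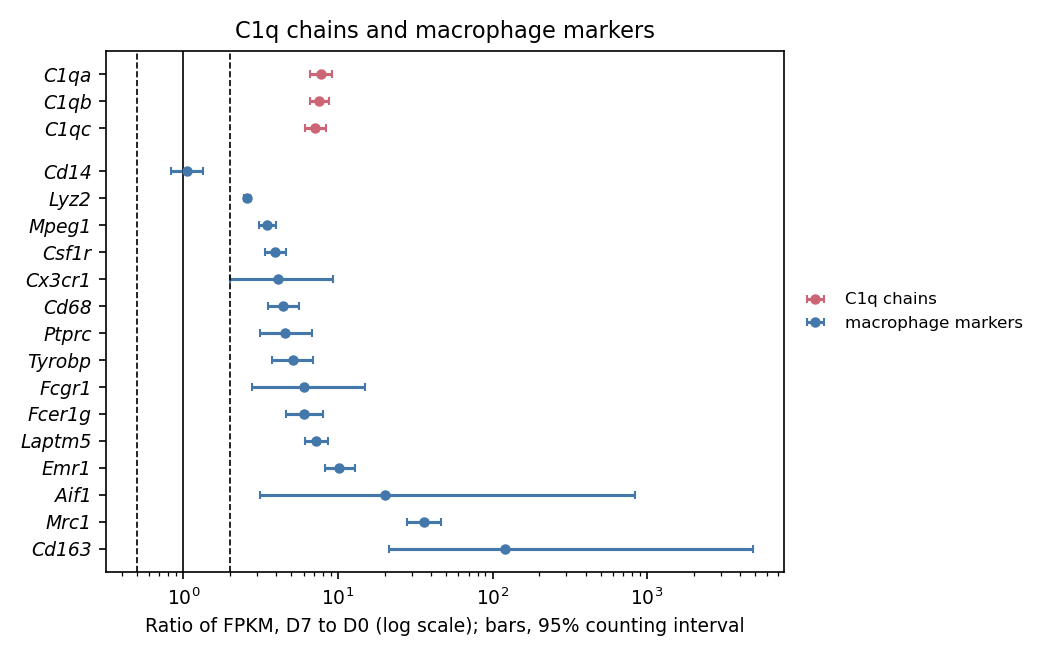
Ratio of FPKM at D7 to D0 (log axis) for the 3 C1q chains and the 15 macrophage markers, with exact 95% counting intervals; the solid line marks 1 and the dashed lines 0.5 and 2.0. The chains sit together between 7.14 and 7.72, while the markers run from 1.06 for Cd14 to 121 for Cd163, which had 1 fragment at D0.

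C4b encodes complement C4 and C2 encodes the protease that joins it in the classical enzyme that cuts C3. C4b (ENSMUSG00000073418.4) lies on chromosome 17 from 34728380 to 34743882, minus strand, and C2 (ENSMUSG00000024371.14) on the same strand from 34862604 to 34898265. C4b stood at FPKM 2.84 in the D0 library against 25.0 in the D7 library, from 317 and 2375 fragments, and the ratio was 8.81 (95% interval 7.83 to 9.94). C2 stood at FPKM 3.48 in the D0 library against 13.3 in the D7 library, from 184 and 598 fragments, and the ratio was 3.83 (3.24 to 4.54). The intervals of the 2 ratios do not overlap. C2 thus stood at 1.22 of the level of C4b at D0 and at 0.532 at D7.

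The value of C4b is less certain than those of the C1q chains, because C4a, the neighbouring copy that encodes the sex-limited protein, holds 18.9% of its 90-base windows. C4a itself stood at FPKM 0.0809 in the D0 library against 0.169 in the D7 library, from 9 and 16 fragments. Its ratio of 2.09 had an interval from 0.870 to 5.37, which includes 1. C2 and Cfb are both spanned by the annotated gene Gm20547, whose transcripts hold 54.2% of the windows of C2 and 81.5% of those of Cfb. The table held no row with values for Gm20547, and how reads in these windows were assigned is not given in the sources used here.

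C3, the protein on which all pathways meet, and Cfd, the protease of the alternative pathway, had the largest ratios of the 9 genes. C3 (ENSMUSG00000024164.15, chromosome 17, 57203970 to 57228136, minus strand, 41 exons) had FPKM values of 0.536 (D0, 57 fragments) and 126 (D7, 11412 fragments). Its ratio was 235 (95% interval 182 to 311), above 99.7% of the 14986 genes above 0 in both libraries. Cfd (ENSMUSG00000061780.6, chromosome 10, 79890853 to 79892655, plus strand) had FPKM values of 0.313 (D0, 5 fragments) and 579 (D7, 7832 fragments). Its ratio was 1851, above 99.9% of the same genes. The 1012 genes listed at 0 at D0 only have no ratio and stand outside these shares. Because of the few fragments at D0 its interval runs from 792 to 5696. This interval lies wholly above that of C3.

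Both genes were among the lowest 3 of the 9 at D0 and among the highest 3 at D7. Cfd alone made up 0.111% of all FPKM at D7. Its level was 0.584 of that of C3 at D0 and 4.59 times that of C3 at D7. The ratio of Cfd fell between those of the adipocyte markers Cd36, a fatty acid transporter, at 719 (523 to 989), and Adipoq, at 4263 (1931 to 13881), and its interval overlaps both. The ratio of C3 was above those of Pparg (33.5) and Cebpa (31.5), transcription factors of adipocyte differentiation, and below that of Fabp4 (710). The deposited locus of Cfd runs from 79697305 to 80369637 and spans 45 other coding genes, but no annotated gene overlaps Cfd itself and 0 of its windows occur in other transcripts. The transcript of C3 shared no window with another gene either.

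The starts of C3 and Cfd are shown because these genes had the largest ratios, as the 250 bases before the RefSeq start (GRCm38.p6). They are chr17:57228137-57228386 on the minus strand and chr10:79890603-79890852 on the plus strand. Capitals in C3 mark TTGCNNAA, the core letters of sites for C/EBP factors, found as TTGCGAAA, and AGGTCA.
C3: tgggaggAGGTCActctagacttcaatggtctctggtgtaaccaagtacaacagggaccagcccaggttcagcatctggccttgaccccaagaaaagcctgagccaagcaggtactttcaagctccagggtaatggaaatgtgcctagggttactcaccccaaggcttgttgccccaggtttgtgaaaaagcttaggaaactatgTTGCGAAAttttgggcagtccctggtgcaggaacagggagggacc
Cfd: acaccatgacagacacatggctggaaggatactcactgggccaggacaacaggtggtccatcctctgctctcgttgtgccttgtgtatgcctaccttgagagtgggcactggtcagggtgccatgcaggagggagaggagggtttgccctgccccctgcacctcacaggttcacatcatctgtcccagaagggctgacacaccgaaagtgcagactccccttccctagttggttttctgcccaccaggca

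The C/EBP letters lie 45 to 38 bases before the start of C3 and are held by 9.56% of all windows on either strand. AGGTCA lies 243 to 238 bases before it. The window of Cfd held no match to these letters, to AGGAAGT or to TATAAA, which is found in 12.4% of all windows. An absent match says only that these letters are not in this window.

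Cfb encodes factor B, which is the substrate of factor D and the protease of the alternative enzyme. Cfb (ENSMUSG00000090231.10) lies on chromosome 17 from 34856374 to 34862518, minus strand, 85 bp from C2. It stood at FPKM 0.907 in the D0 library against 8.22 in the D7 library, from 50 and 384 fragments, and the ratio was 9.06 (95% interval 6.72 to 12.4). Cfb was thus the lowest of the 9 genes at D7. Its level stood at 1.69 of that of C3 at D0 and at 0.0652 at D7. C2 and Cfb, which are related in sequence and lie side by side, also differed, since the ratio of C2 was lower and the intervals do not overlap. The windows shared with Gm20547 limit both values.

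Serping1 encodes C1 inhibitor, which blocks C1r, C1s and the lectin pathway proteases, and it is the only inhibitor among the 9 genes. Serping1 (ENSMUSG00000023224.12, chromosome 2, 84765387 to 84775444, minus strand, 8 exons) stood at FPKM 70.0 in the D0 library against 137 in the D7 library, from 2388 and 3964 fragments. Its ratio of 1.96 (95% interval 1.86 to 2.06) lay above 1, and the interval includes 2.0. It was the lowest ratio of the 9 genes, and its interval lies below the intervals of the other 8.

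**Figure D3:**
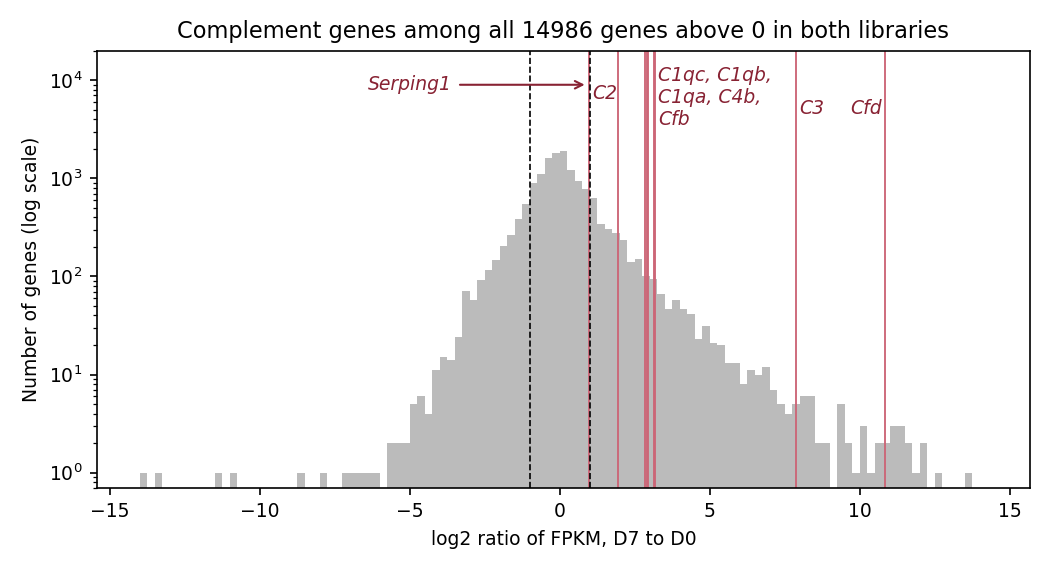
Number of genes (log axis) by log2 ratio of FPKM at D7 to D0 for the 14986 genes above 0 in both libraries, with a vertical line for each complement gene and dashed lines at 2.0-fold. Serping1 lies at 0.97, C2 at 1.94, the C1q chains, C4b and Cfb between 2.84 and 3.18, and C3 and Cfd far out at 7.88 and 10.85.

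The other genes of the pathway were taken from lists of initiators, terminal components, receptors and regulators. Values were held by 48 of them, and 31 were above 0 in both libraries. Of these 31, 17 were called higher and 2 lower, beside 18.5% and 13.2% of all genes. Their median log2 ratio was 1.18. Among the 19 genes above 0 in both libraries with an FPKM of at least 1 in a library, 12 were higher and 1 was lower. Some of the higher genes, among them Fcna, C8g, C3ar1, Itgam and Cd93, passed this filter only through D7.

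The partners of C1q were present at both stages. C1ra, the copy of C1r used here, stood at FPKM 12.7 in the D0 library against 28.7 in the D7 library, so that the ratio was 2.27 (95% interval 2.08 to 2.48). C1s, the protease that cuts C4 and C2, had 25.5 and 59.8, a ratio of 2.35 (2.21 to 2.50). Both were higher at D7, but each shares windows with related genes, 38.3% for C1ra and 22.8% for C1s. With each library divided by its median they fell short of 2.0-fold, at 1.78 and 1.84. In the lectin pathway, Masp1, which encodes a protease bound to lectins, was lower at D7 with 9.47 and 4.32, a ratio of 0.457 (0.407 to 0.513) that missed the threshold, at 0.509, with a pseudocount of 1. Fcna, encoding ficolin A, had 0.368 and 1.78, a ratio of 4.85 (2.43 to 12.0), and the mannose-binding lectins Mbl1 and Mbl2 were listed at 0 in both libraries. Colec12, a scavenger receptor of the collectin family, stood at 63.4 and 66.8, a ratio of 1.05 that turned to 0.825 with each library divided by its median.

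Components after C3 were low. Of the 7 terminal genes with values, C8a, C8b and C9 were listed at 0 in both libraries, and Hc, which encodes C5, had 2 fragments at D0 and 1 at D7. C8g, which encodes a lipocalin chain of C8, was the only terminal gene with an FPKM of at least 1, at 0.808 (D0) and 4.57 (D7), which gave a ratio of 5.66 (95% interval 3.30 to 10.1). C6 reached FPKM 0.412 with 20 fragments in the D7 library, after 0 in the D0 library. Set against the limit of 3 fragments at D0, its D7 level was 7.95-fold higher, with the counting error of the 20 fragments left out. C7 had 1 fragment (D0) and 17 (D7), with a ratio of 20.0 (3.14 to 836). Cfp, encoding properdin, the stabiliser of the alternative enzyme, stood at FPKM 2.35 in the D0 library against 9.22 in the D7 library, so that the ratio was 3.92.

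Of 10 receptor genes with values, 9 were above 0 in both libraries, and 5 of these were higher at D7 and 0 were lower. Over all genes 18.5% were higher and 13.2% lower. C3ar1, the receptor for the C3a peptide, stood at FPKM 0.712 in the D0 library against 4.63 in the D7 library, so that the ratio was 6.50 (95% interval 4.96 to 8.64). C5ar1, the receptor for C5a, had 1.34 and 5.19, a ratio of 3.89 (2.94 to 5.16). Itgam and Itgb2, the chains of complement receptor 3 of myeloid cells, had ratios of 4.22 (3.35 to 5.38) and 2.99 (2.35 to 3.82). An annotated gene, Gm49368, holds 71.3% of the windows of Itgam. Cd93 had a ratio of 5.65 (4.24 to 7.75). C1qbp, whose product is also a mitochondrial protein, stood at 88.3 and 86.4, a ratio of 0.978 (0.915 to 1.05).

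Regulators moved unevenly. Of 17 with values, 10 were above 0 in both libraries, and 4 of these were higher and 1 was lower, beside 18.5% and 13.2% of all genes. Clu, encoding clusterin, which binds the terminal complex, stood at FPKM 1.17 in the D0 library against 49.6 in the D7 library, so that the ratio was 42.3 (95% interval 31.1 to 59.3). Cd55, Cr1l, Cd59a and Cd59b encode regulators bound to the membrane, and none of these passed 2.0-fold. Cd55, which breaks up the enzymes that cut C3, had 7.72 and 4.90, a ratio of 0.635 (0.536 to 0.755), which reached 0.498 with each library divided by its median. Cr1l, also called Crry, had a ratio of 1.16 (1.06 to 1.28), Cd59a, which blocks the terminal complex, 0.962 (0.850 to 1.09), and its copy Cd59b 1.18 (0.567 to 2.46). With that division the ratios of Cr1l and Cd59b turned to 0.911 and 0.925. Vtn, the regulator called lower, had 4 fragments at D0 and 1 at D7, and its interval from 0.00598 to 2.98 includes 1.

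**Figure D4:**
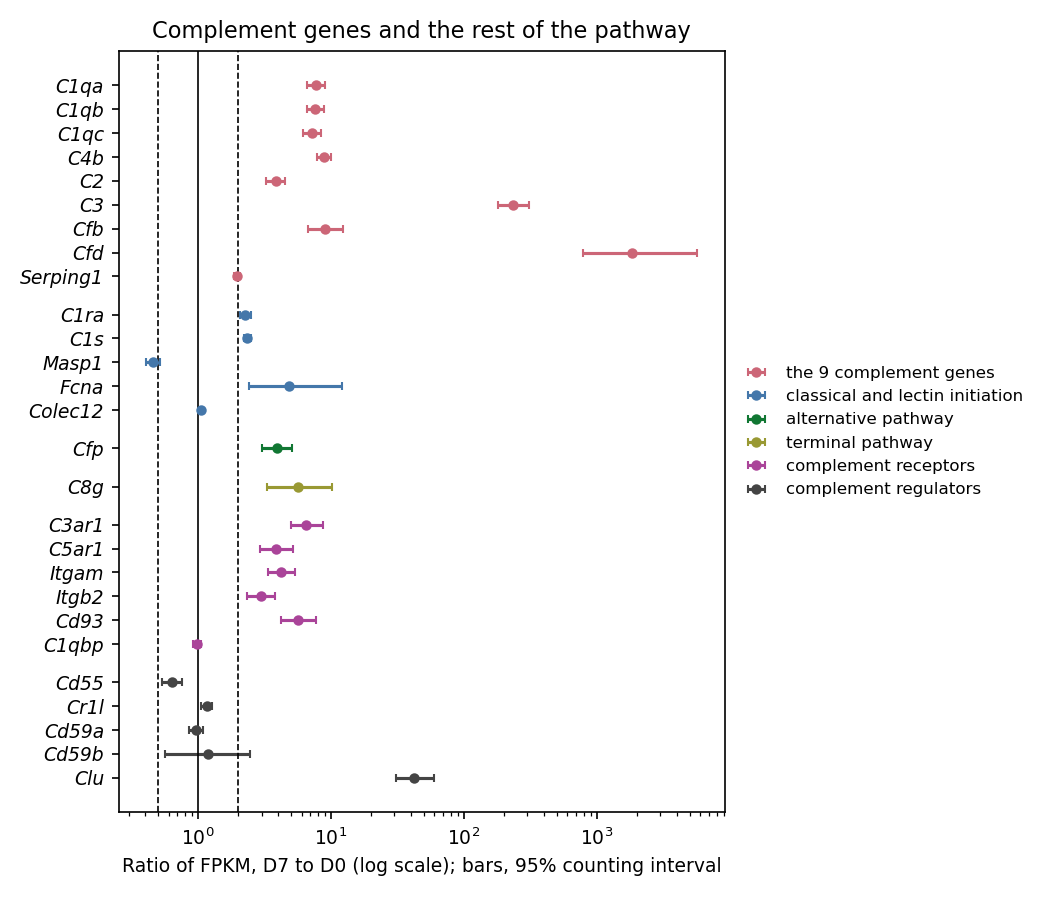
Ratio of FPKM at D7 to D0 (log axis) for the 9 complement genes and 18 of the 19 other pathway genes with an FPKM of at least 1 in a library, coloured by list, with exact 95% counting intervals; the solid line marks 1 and the dashed lines 0.5 and 2.0. Cfd, C3 and Clu have the highest ratios, and Masp1, at 0.457, is the only gene left of 0.5.

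Position in the genome was compared next, since 6 of the 9 genes lie in 2 groups. The C1q chains lie within 18.7 kb and C4b, Cfb and C2 within 170 kb of chromosome 17. Coding genes within 100 kb of a complement gene with an FPKM of at least 1 in a library were counted. Tnxb and Vav1 passed this filter only through D7 and Tnfsf9 only through D0, so their calls are tied to the filter. Around the C1q genes these were Ephb2, with a ratio of 0.377, and Zbtb40, with 0.886. Around C4b, Cfb and C2 there were 13, of which 2 were higher and 1 was lower. The higher genes were Tnxb, encoding tenascin XB, which lies 8565 bp from C4b and went from an FPKM of 0.719 to 7.06, and Fkbpl, with a ratio of 2.39. Nelfe, a gene of transcription elongation that lies 2 bp from Cfb, had a ratio of 0.728. Ehmt2, a histone methyltransferase gene 204 bp from C2 as annotated in GENCODE M21, had a ratio of 0.775. The deposited locus of C2 ends at 34882100, short of the annotated end at 34898265, so Ehmt2 lies farther from it. Zbtb12, which overlaps C2 on the opposite strand, had a ratio of 0.610. Of 9 neighbours of Cfd, 0 were higher and 2 were lower, and the nearest, Med16, had a ratio of 1.04. Of 4 neighbours of C3, Vav1, a signalling gene of blood cells, was higher with a ratio of 4.69 and Tnfsf9 was lower with 0.170. Of 9 neighbours of Serping1, 3 were higher and 1 was lower. Over all genes above 0 in both libraries, without the FPKM filter used for neighbours, 18.5% were higher and 13.2% lower.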

How the data were processed

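RNA-Seq was analysed for brown preadipocytes (D0) and brown adipocytes (D7), with 1 library each. The authors removed duplicate, low quality and rRNA reads, aligned the rest to mm10 and gene sequences with SOAP2, and deposited the resulting FPKM, 1 per gene in each library. The submitters' processing notes name Bowtie2 instead. The counting tool, the annotation and the use of strand are not given in the sources used here. Of 27324 rows, 23361 held values. The FPKM values were used as deposited. Ratios from 2.0 upward or from 0.5 downward were called, at the fold threshold of the paper's methods, where both values were above 0. Called here were 2767 higher and 1980 lower genes. The paper, which used GeneSpring, counted slightly more higher genes and far more lower genes.

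To recover fragments, 600 single-exon genes were used, none shorter than 600 bp, with ends that differed from GENCODE M21 by at most 500 bp. With 179 bp (D0) and 182 bp (D7) taken from each length, all low values (up to 20 fragments, 79 at D0 and 90 at D7) came out whole, with a tolerance of 0.1. Other genes used the length of the named transcript, so their fragments are approximate. Ratios have exact Clopper-Pearson intervals and levels exact Poisson intervals. Windows of 90 bases were matched exactly, on both strands, to GENCODE M21 transcripts. Promoter windows are from RefSeq (GRCm38.p6).

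The 9 genes and all lists were chosen with earlier results of these data known. All 9 genes are named, as are other pathway genes with an FPKM of at least 1 in a library, except 1 that is counted but not reported here, and of the marker lists those a sentence turns on. Terminal genes with few fragments, C4a, Mbl1, Mbl2 and Vtn, and the neighbours within 100 kb, were named after their values were seen. Alternatives were TPM, pseudocounts (0.1 or 1), the upper quartile, centring on a trimmed mean (30% from each end) or on the median, the library median as divisor after a floor of 0.01, summed rows, an FPKM filter at 1, a threshold of 4.0-fold and an interval on 1 side of 1. A minimum of 10 fragments was added after seeing the data. The recovery of the denominators and the intervals of ratios were tested on simulated data. The work used scipy 1.17.1 and pandas 2.3.3 with numpy 2.4.6 under Python 3.11.15, and figures were drawn in matplotlib 3.10.9.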

Additional observations from a re-analysis of the deposited data

How the results depend on the processing

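The count of complement genes higher at D7 was 8 under the scaling, pseudocount, summing, filter and interval alternatives, 7 at a threshold of 4.0-fold, where C2 is left out, and 7 with at least 10 fragments in each library, where Cfd is left out. The count of lower genes was 0 under each. Dividing by the library median after a floor of 0.01 moved the log2 ratio of C1qb by -0.35 and the median of all genes to -0.34. It brought C1qa to 6.05, C1qb to 5.94, C1qc to 5.59 and Serping1 to 1.53. A pseudocount of 1 brought Cfd to 442, C3 to 82.8, Cfb to 4.84 and C4b to 6.78. Among other pathway genes it brought Clu to 23.3, C3ar1 to 3.29, C8g to 3.08, Itgam to 2.58, Cd93 to 2.32, Fcna to 2.04 and Masp1 to 0.509. No ratio of the 9 genes turned to the other side of 1 under these alternatives. Among the other pathway genes, the 17 higher became 10 at a threshold of 4.0-fold and 11 with at least 10 fragments in each library. The 2 lower became 1 with a pseudocount of 0.1, an FPKM of at least 1, an interval on 1 side of 1 or at least 10 fragments, 0 with a pseudocount of 1 or a threshold of 4.0-fold, and 4 with division by the library median. The macrophage markers called higher numbered 11 to 14. No paired analysis was possible because each stage had 1 library. Leaving out a library was not possible for the same reason. The 5 fragments of Cfd at D0 limit its ratio, and the spread between cultures limits every value.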
